A study of Homo sapiens with 24 samples.

Results

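The NRF2 antioxidant genes examined here were a fixed list of 10 genes: NFE2L2, KEAP1, BACH1, HMOX1, NQO1, GCLM, GCLC, TXNRD1, SRXN1 and OSGIN1. They were chosen by name, and all 10 were found among the 61533 genes of the deposited count table. The assay was 4sU-seq, in which cells take up the uridine analogue 4-thiouridine (200 µM here, during the last hour) and the labelled RNA is purified and sequenced. The cells were U2OS, a human osteosarcoma line with very low endogenous glucocorticoid receptor (GR, encoded by NR3C1). All 3 lines carried a GR with a C-terminal HaloTag under the CMV promoter on an integrated PiggyBac transposon. It was wild-type GR (wt), the K492A mutant (SoF) or the R470A mutant (Ctrl). According to the paper, K492A strongly reduced RNA affinity in vitro and reduced DNA affinity to a smaller degree. R470A was its control, with a similar moderate loss of DNA affinity and wild-type RNA affinity. Each line was 1 puromycin-selected and sorted pool, so the construct and the pool cannot be told apart. The synthetic glucocorticoid dexamethasone was given at 100 nM during 1, 2 or 3 h, and dishes with 0.01% ethanol served as 0 h, with 2 libraries in each of the 12 groups, 24 in all. The sources used here do not say how long the 0 h dishes were kept in ethanol. No ethanol group was matched to each time of dexamethasone. Time in dexamethasone and time since the change of medium therefore cannot be told apart.

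NRF2, the product of NFE2L2, is a basic leucine zipper transcription factor. KEAP1 holds it in the cytoplasm and presents it to a ubiquitin ligase for degradation, and oxidants or electrophiles that modify KEAP1 release it. NRF2 then pairs with small MAF proteins on antioxidant response elements, where BACH1 competes with it as a repressor. Its targets make glutathione, reduce thioredoxin and peroxiredoxins, regenerate NADPH and break down haem.

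Of the 10 genes, 9 had a promoter entry in the RefSeq table (GRCh38.p14), and the 250 bases before each start were searched on both strands. The antioxidant response element core TGACNNNGC was present in 2 of the 9, GCLM and TXNRD1, against 10.9% of 35116 promoters. These windows are shown because they hold the element, with the core in capitals. The GCLM sequence, which is cut at the core because the annotation places the bases beyond it inside the gene, spans chr1:93909456-93909680 on the minus strand, and its core lies 34 to 26 bases before the RefSeq start. The TXNRD1 sequence spans chr12:104215529-104215778 on the plus strand, with its core 99 to 91 bases before the start.
GCLM: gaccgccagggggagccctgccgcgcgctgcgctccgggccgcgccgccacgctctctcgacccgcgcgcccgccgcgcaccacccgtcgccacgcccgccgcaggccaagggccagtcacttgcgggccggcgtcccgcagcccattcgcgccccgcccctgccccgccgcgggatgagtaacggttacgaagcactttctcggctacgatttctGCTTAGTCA
TXNRD1: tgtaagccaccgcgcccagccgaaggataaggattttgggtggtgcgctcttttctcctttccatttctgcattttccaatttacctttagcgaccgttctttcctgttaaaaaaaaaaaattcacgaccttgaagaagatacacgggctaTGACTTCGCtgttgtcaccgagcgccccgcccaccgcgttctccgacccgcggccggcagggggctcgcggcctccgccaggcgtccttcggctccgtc
The AP-1 motif TGANTCA, which can overlap the antioxidant core, was present in 1 of the 9, OSGIN1, against 6.57% of all promoters. It read TGACTCA, 97 to 91 bases before the OSGIN1 start. The glucocorticoid response element ACANNNTGT was in 0 of the 9 windows and in 4.61% of all promoters. These matches are descriptions of letters and not of bound sites.

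Library totals ranged from 8106036 to 15820806 counts. The mesenchymal markers RUNX2 (51.5 to 158 CPM over the 24 libraries), COL1A1 (249.5 to 1008 CPM), SPARC and VIM were present, whereas COL1A2 did not exceed 0.602 CPM and TWIST1 0.0674 CPM. Of the epithelial markers, KRT8 ranged from 111 to 263 CPM, EPCAM did not exceed 3.60 CPM and CDH1 8.09 CPM. Among the leukocyte, endothelial and hepatocyte markers, PTPRC reached 2.17 CPM, and CD3E, PECAM1, CDH5 and ALB stayed at or below 0.802 CPM. NR3C1, which counts endogenous and introduced GR together, averaged 771 CPM ± 458 (SD, n = 8) in wt, 2855 ± 1926 in SoF and 3503 ± 2099 in Ctrl, and was higher in SoF than in wt (edgeR adjusted p = 0.00634) and in Ctrl than in wt (0.00261). Averaged over lines it also moved with time, with a log2 fold change of 1.07 at 1 h and -1.06 at 3 h. The lines thus differed in labelled NR3C1 RNA as well as in receptor sequence, and the part of either in the values below was not tested. For the protein, the paper reports that sorted fractions were picked so that nuclear GR matched between lines after dexamethasone, by immunofluorescence. Labelled RNA is not a measure of that protein.

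The level of each gene was given as CPM (counts relative to the library total, scaled with the TMM factors), and genes were compared with each other only as CPM per kilobase of annotated exon. By that measure TXNRD1, a thioredoxin reductase, was highest with 58.3 CPM per kilobase ± 12.9 (SD, n = 24), followed by BACH1 with 42.9 ± 8.93 and SRXN1, which repairs overoxidised peroxiredoxins, with 34.2 ± 11.3. The other 7 genes followed in the order KEAP1 (14.9 ± 3.79), NQO1 (12.1 ± 2.76), HMOX1 (11.5 ± 4.14), GCLC (10.2 ± 2.10), NFE2L2 (9.05 ± 1.40), OSGIN1 (8.35 ± 1.84) and GCLM (6.09 ± 0.779). Neighbours in this order differed by less than the SD of the higher gene, save TXNRD1 and BACH1, SRXN1 and KEAP1, and OSGIN1 and GCLM. SRXN1 (ENSG00000271303.2, chr20:646615-653200) shares exons on its strand with ENSG00000270299, whose CPM was 0.929 to 0.956 times that of SRXN1 in every library, so its level is uncertain. OSGIN1 shares exons with MLYCD on its strand and is uncertain too, and NFE2L2 overlaps HNRNPA3 and AGPS on the opposite strand, which makes it uncertain if the counting did not use strand.

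**Figure D1:**
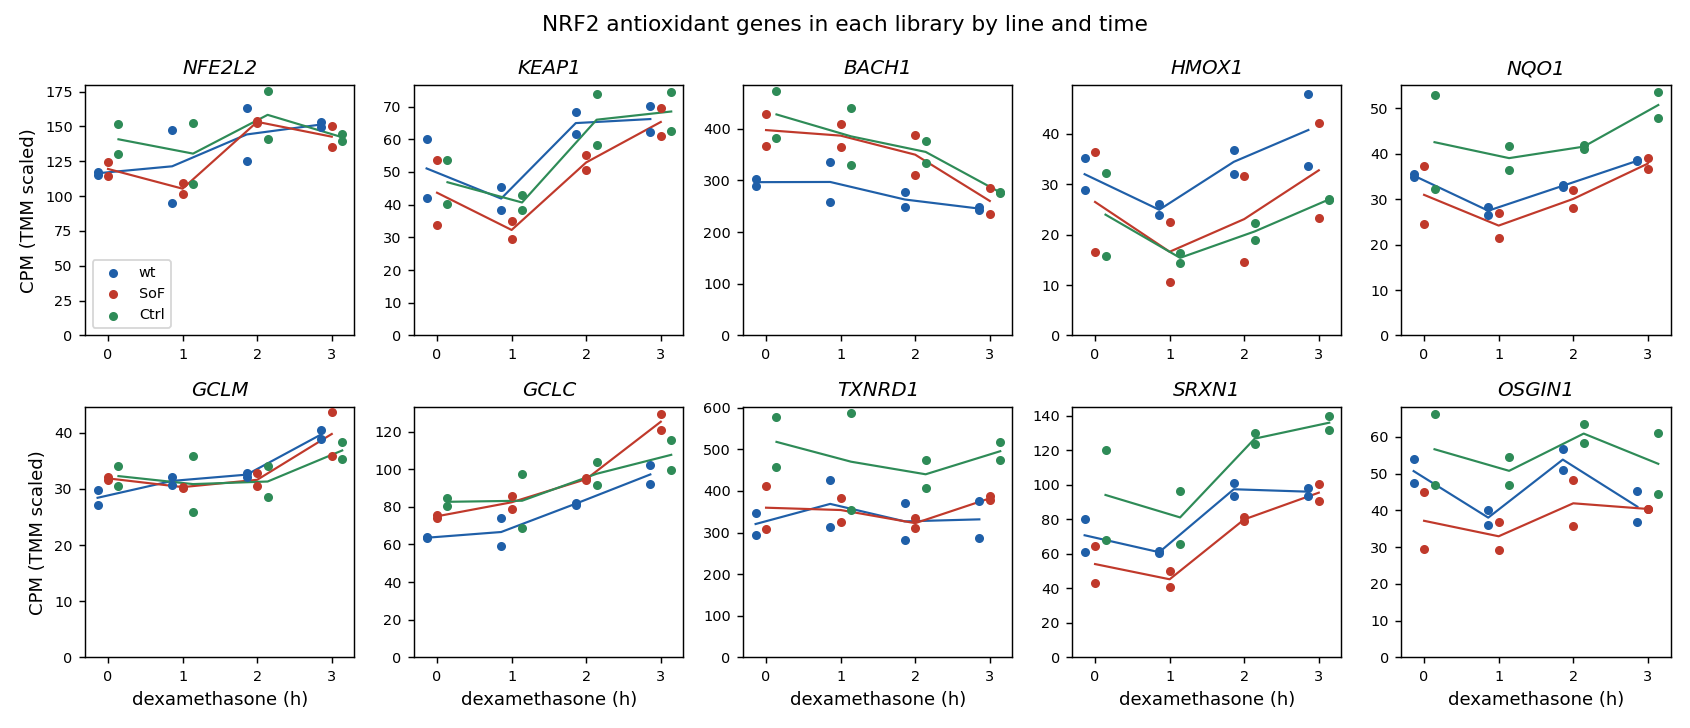
Level of each of the 10 genes (CPM, vertical axis from 0) against hours of dexamethasone (horizontal axis) in wt (blue), SoF (red) and Ctrl (green). Points are the 24 libraries, shifted sideways by line, and lines join the means of the 2 libraries of a group; GCLC and GCLM stand above their 0 h libraries at 3 h and BACH1 below them.

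The first question was how the genes changed with dexamethasone, and averaging the 3 lines gave 6 libraries at each time. At 0 h the differences between replicates 1 and 2 correlated between lines over all genes (0.394 to 0.568). The 6 libraries at 0 h may therefore not be independent, and p-values against 0 h averaged over lines may be too small. At 3 h, 5 of the 10 genes passed the test against 0 h, where 40.3% of all 23651 tested genes did. GCLC, GCLM, KEAP1 and SRXN1 rose and BACH1 fell, and the median log2 fold change of the 10 was 0.24 against -0.03 for all tested genes. At 2 h, 3 of the 10 had risen (GCLC, KEAP1 and SRXN1), where 28.8% of all genes were called, 16.2% as higher. At 1 h none was called by edgeR or by DESeq2, where 1.28% of all genes were called by edgeR. An unadjusted p under 0.05 was found for 4 of the 10 and for 3332 of all 23651 genes. Counted in either direction, the called shares of the 10 were close to those of all genes at 2 and 3 h. The share of all genes called is not given for the fits below that left out libraries or the filter on low counts. Nor is it given for DESeq2, its size factors, a replicate block, a line's own libraries or the 0 h libraries alone. Counts from those fits therefore cannot be set beside the shares above. Leaving out the 3 replicate 2 libraries at 0 h ended all 3 calls at 2 h (GCLC 0.30, KEAP1 0.13, SRXN1 0.21) and made 5 of the 10 pass as lower at 1 h, namely HMOX1 (-0.90), KEAP1 (-0.55), SRXN1 (-0.50), NQO1 (-0.49) and OSGIN1 (-0.45). The KEAP1 call at 2 h was also lost without replicate 2 at 0 h of wt (0.28), SoF (0.26) or Ctrl (0.30), and without wt 2 h replicate 1 (0.33), SoF 2 h replicate 1 (0.35) or Ctrl 2 h replicate 2 (0.30). NFE2L2 at 2 h (0.28, SE 0.11, edgeR adjusted p = 0.0508) did not pass by a small margin.

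**Figure D2:**
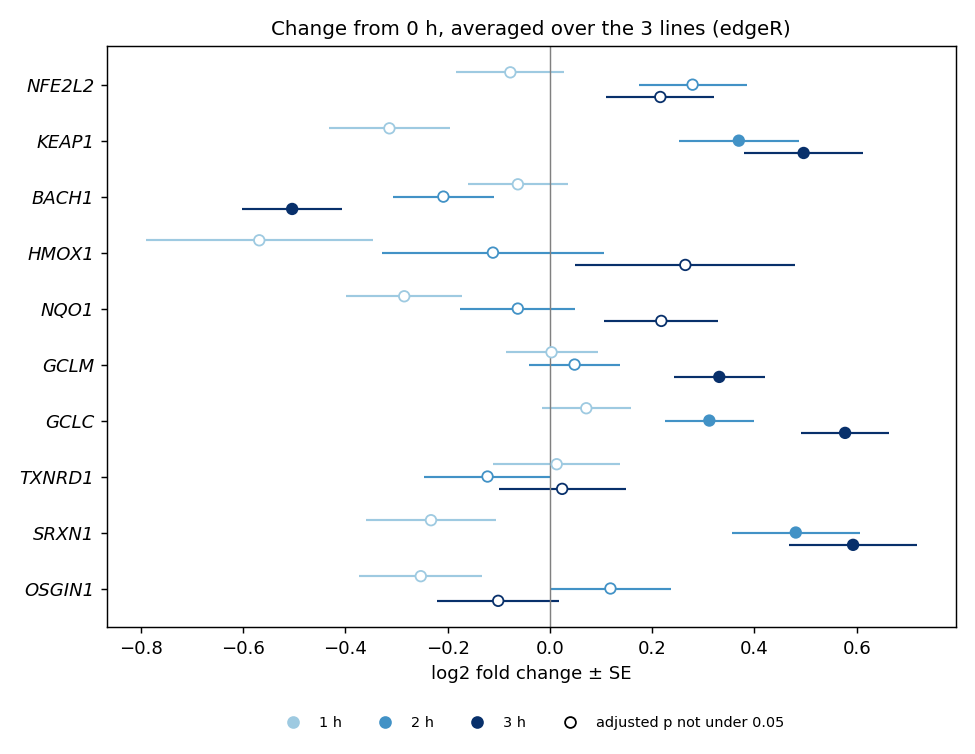
Log2 fold change (horizontal axis) with its SE (bars) of each gene at 1, 2 and 3 h against 0 h, averaged over the 3 lines; filled points had an adjusted p under 0.05 in edgeR. GCLC, GCLM, KEAP1 and SRXN1 lie to the right of 0 at 3 h and BACH1 to the left.

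GCLC (ENSG00000001084.13, chr6:53497341-53616970, minus strand) and GCLM (ENSG00000023909.10, chr1:93885199-93909456, minus strand) encode the catalytic and the modifier subunit of glutamate-cysteine ligase, which makes the first bond of glutathione. At 0 h GCLC read 63.9 and 63.2 CPM in wt, 74.2 and 75.8 in SoF, and 84.8 and 80.5 in Ctrl. At 3 h it read 102 and 92.1 CPM in wt, 129.5 and 121 in SoF, and 116 and 99.6 in Ctrl. All 6 libraries at 3 h were above all 6 at 0 h, and the group mean was higher at each later time in each line. The rise was 1.49-fold (log2 0.58, SE 0.09, edgeR adjusted p = 1.6e-05), after 0.31 (SE 0.09) at 2 h. GCLM had a lowest value of 27.1 CPM, a median of 31 and a highest of 34 at 0 h, and 35.3, 38.6 and 43.7 CPM at 3 h. Its 6 libraries at 3 h likewise lay above all 6 at 0 h and also above all 6 at 2 h, so that its libraries separated between 2 and 3 h. Its log2 fold change was 0.33 (SE 0.09, edgeR adjusted p = 0.00496) at 3 h and 0.05 (SE 0.09) at 2 h. Both genes kept their 3 h call when all replicate 1 libraries at 0 h were left out (GCLC 0.59, GCLM 0.34) and when all replicate 2 libraries at 0 h were (0.57 and 0.34).

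BACH1 (ENSG00000156273.16, chr21:29194071-29630751, plus strand), the repressor, fell. Its lowest, median and highest values were 289.9, 374 and 473 CPM at 0 h, and 235, 262 and 285 CPM at 3 h. No library at 3 h reached the lowest at 0 h. The log2 fold change was -0.50 (SE 0.10, edgeR adjusted p = 0.000308), and it was -0.57 and -0.42 without the replicate 1 and the replicate 2 libraries at 0 h, with the call kept in both.

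KEAP1 (ENSG00000079999.14, chr19:10486125-10503558, minus strand) and SRXN1 rose between 1 and 2 h, and for both the 2 libraries at 0 h differed. KEAP1 at 0 h read 60.0 and 42.2 CPM in wt, 53.5 and 33.8 in SoF, and 53.6 and 40.2 in Ctrl, with replicate 1 higher in each line. At 3 h it read 62.3 and 70.1 CPM in wt, 61.0 and 69.5 in SoF, and 62.6 and 74.4 in Ctrl, each above every 0 h library. The log2 fold change was 0.50 (SE 0.12, edgeR adjusted p = 0.00175). It was 0.79 without the 3 replicate 1 libraries at 0 h and 0.27 without the 3 replicate 2 libraries, where the call was lost (adjusted p = 0.0618). SRXN1 at 0 h read 80.4 and 61.1 CPM in wt, 64.8 and 43.3 in SoF, and 119.9 and 68.2 in Ctrl, and at 3 h 93.6 and 98.3, 90.3 and 100.5, and 132 and 140.0 CPM. The ranges of the 2 times overlapped over the lines, but within each line both 3 h libraries exceeded both at 0 h. Its log2 fold change was 0.59 (SE 0.12, edgeR adjusted p = 0.00065), 0.93 without replicate 1 at 0 h and 0.34 without replicate 2, with the call kept in both.

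The other 5 genes did not pass at 3 h. NFE2L2 (ENSG00000116044.16, chr2:177218667-177392756, minus strand) had a lowest, median and highest value of 115, 121 and 151 CPM at 0 h and 135, 147 and 153 CPM at 3 h, a log2 fold change of 0.22 (SE 0.11, edgeR adjusted p = 0.108). NQO1 (ENSG00000181019.13, chr16:69706996-69726668, minus strand), a quinone reductase, had 24.6, 35.2 and 53.0 CPM at 0 h and 36.7, 38.8 and 53.6 CPM at 3 h, a log2 fold change of 0.22 (SE 0.11). Both pairs of ranges overlapped. TXNRD1 (ENSG00000198431.17, chr12:104215779-104350307, plus strand) had 294, 379 and 579 CPM at 0 h and 287, 382 and 517 CPM at 3 h, a log2 fold change of 0.02 (SE 0.12). OSGIN1 (ENSG00000140961.14, chr16:83931311-83966332, plus strand), an oxidative stress-induced growth inhibitor, had 29.4, 47.2 and 66.3 CPM at 0 h and 36.7, 42.4 and 61.0 CPM at 3 h, a log2 fold change of -0.10 (SE 0.12). Of the 2 genes with the antioxidant core in the printed window, GCLM rose and TXNRD1 was not called (interval of 1.96 SE, -0.22 to 0.27), and the difference between the 2 genes was not tested. NQO1 (0.48) and HMOX1 (0.76) passed at 3 h when the 3 replicate 1 libraries at 0 h were left out, and NQO1 also without SoF 0 h replicate 1 (0.34) or Ctrl 0 h replicate 1 (0.36) alone.

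HMOX1 (ENSG00000100292.18, chr22:35380361-35394214, plus strand), which breaks down haem, had the largest SD relative to its mean of the 10 over the 24 libraries. At 0 h it read 35.1 and 28.9 CPM in wt, 36.4 and 16.5 in SoF, and 32.1 and 15.8 in Ctrl, and at 3 h 47.8 and 33.7, 42.2 and 23.3, and 26.9 and 27.1 CPM. In SoF, replicate 1 was higher than replicate 2 at all 4 times, with ratios of 2.20, 2.11, 2.19 and 1.81 at 0, 1, 2 and 3 h. The log2 fold change at 3 h was 0.26 (SE 0.21, edgeR adjusted p = 0.342) and at 1 h -0.57 (SE 0.22, adjusted p = 0.253). Without the filter on low counts, HMOX1 passed at 1 h (-0.61, edgeR adjusted p = 5.9e-05) and from 1 to 2 h (0.48, adjusted p = 0.00056). In the filtered fit the latter was 0.46 (SE 0.22, adjusted p = 0.0991). The log2 fold changes thus moved little between these fits, and why the adjusted p-values were lower was not tested. With the filter, HMOX1 also passed from 1 to 2 h without SoF 1 h replicate 1 (0.67) or SoF 2 h replicate 2 (0.61).

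A comparison of successive times used no 0 h library. From 1 to 2 h, 5 of the 10 genes rose, where 44.9% of all genes were called, 22.7% as higher: SRXN1 by a log2 fold change of 0.71 (SE 0.13), KEAP1 by 0.68 (SE 0.12), OSGIN1 by 0.37 (SE 0.12), NFE2L2 by 0.36 (SE 0.11) and GCLC by 0.24 (SE 0.09). KEAP1 read 29.4 to 45.5 CPM at 1 h and 50.7 to 73.8 CPM at 2 h, with no overlap. For KEAP1, SRXN1 and OSGIN1 the 1 h mean lay below the 0 h mean in each line. For GCLC it lay above in each line, and for NFE2L2 in 1 line. OSGIN1 averaged 48.2, 40.6, 52.2 and 44.7 CPM at 0, 1, 2 and 3 h. The GCLC call was lost without wt 1 h replicate 1 (0.19), wt 2 h replicate 2 (0.24), SoF 1 h replicate 1 (0.22), SoF 2 h replicate 1 (0.25), Ctrl 1 h replicate 2 (0.17) or Ctrl 2 h replicate 1 (0.22), and the OSGIN1 call without SoF 1 h replicate 2 (0.32) or SoF 2 h replicate 1 (0.30). From 2 to 3 h only GCLM was called by edgeR (0.28, SE 0.09, adjusted p = 0.0441), where 10% of all genes were, and its call was lost in 12 of the 24 fits that each left out 1 library, lowest at 0.25 without SoF 3 h replicate 2 or Ctrl 2 h replicate 1, and without the filter on low counts (0.31, adjusted p = 0.097). DESeq2 called 3 of the 10.

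Within single lines each comparison had 2 libraries against 2. At 1 h none of the 10 was called in wt, SoF or Ctrl by edgeR or DESeq2, where 0.156%, 0.165% and 0.0465% of all genes were. An unadjusted p under 0.05 was found for 0, 1 and 0 of the 10, and for 2602, 1645 and 423 of all 23651 genes. At 2 h none was called by either tool, where 4.6%, 5.68% and 7.95% of all genes were. An unadjusted p under 0.05 was found for 2, 2 and 1 of the 10, and for 4397, 4715 and 5412 of all 23651 genes. At 3 h in wt, 2 of the 10 rose, where 10.7% of all genes were called, 6.60% as higher: GCLC (log2 0.61, SE 0.15, edgeR adjusted p = 0.00992) and GCLM (0.48, SE 0.15, adjusted p = 0.0458). KEAP1 (0.37) and SRXN1 (0.44) were not called. Without the 3 replicate 1 libraries at 0 h, the wt values were 0.60 for GCLC, 0.54 for GCLM, 0.64 for KEAP1 and 0.64 for SRXN1. Which of these genes were called changed in that fit. It held 1 wt library at 0 h, so only the values are given. The wt GCLC call was lost without either 0 h library of wt (0.60 and 0.62) or without its 3 h replicate 1 (0.54), and the GCLM call was lost in 13 of the 24 fits that left out 1 library, at 0.44 to 0.54.

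At 3 h in SoF, 4 of the 10 were called, where 19.3% of all genes were. GCLC (log2 0.74, SE 0.15), SRXN1 (0.81, SE 0.22) and KEAP1 (0.57, SE 0.20) rose and BACH1 fell (-0.61, SE 0.17). The GCLC call was kept in every fit that left out 1 library. The SRXN1 call was lost without SoF 0 h replicate 2 (0.56) or SoF 3 h replicate 2 (0.74), the BACH1 call without SoF 0 h replicate 2 (-0.49) or SoF 3 h replicate 1 (-0.48), and the KEAP1 call in 18 of the 24 fits, with 0.29 without SoF 0 h replicate 2 and 0.48 to 0.66 in the other 17. At 3 h in Ctrl, 1 of the 10 was called, where 14.2% of all genes were: BACH1 (-0.63, SE 0.17, edgeR adjusted p = 0.0158), which was lost without Ctrl 0 h replicate 2 (-0.47) or without either Ctrl 3 h library (-0.63 and -0.62). Without Ctrl 0 h replicate 1, the library with the high KEAP1, SRXN1 and NQO1 values, these 3 genes passed as well, at 0.78, 1.01 and 0.67.

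The differences between lines in the 3 h response were tested as such, which addresses whether the lines, each 1 pool, responded differently. The part of the receptor mutations in the response was not tested. None of the 10 was called in any of the 3 contrasts by edgeR or DESeq2, and none had an unadjusted p under 0.05. An unadjusted p that low was found for 671 (SoF minus Ctrl), 558 (SoF minus wt) and 845 (Ctrl minus wt) of all 23651 genes. Of all tested genes, 0.0127% were called between SoF and Ctrl, 0% between SoF and wt and 0% between Ctrl and wt. For SoF minus wt the log2 differences of the 10 genes ran from -0.34 to 0.42, with SEs of 0.21 to 0.52. The bounds at 1.96 SE reached from -1.08 to 0.99 for SoF minus wt, from -1.23 to 0.83 for Ctrl minus wt and from -0.90 to 1.19 for SoF minus Ctrl. A call in one line and not in another is therefore not a difference between the lines, and these bounds, which are the widest over the 10 genes, do not show that the lines responded alike.

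The lines were next compared over all times, 8 libraries each, in a fit that ignored time as the study's methods describe. None of the 10 was called between SoF and wt by edgeR or DESeq2, where 8.02% of 21122 tested genes were called by edgeR. An unadjusted p under 0.05 was found for 3 of the 10 and for 5308 of the 21122 genes. Between Ctrl and wt, 1 of the 10 was called, where 4.77% of all genes were: TXNRD1, which was higher in Ctrl. Between SoF and Ctrl, 3 of the 10 were called, where 3.61% of all genes were, and TXNRD1, NQO1 and OSGIN1 were all lower in SoF. A fit that added time as a term called more genes, 29% of all genes for SoF minus wt, 18.8% for Ctrl minus wt and 13.3% for SoF minus Ctrl. In it, 4 of the 10 passed for SoF minus wt: BACH1 (0.33) and GCLC (0.29) were higher in SoF, and SRXN1 (-0.26) and OSGIN1 (-0.25) were lower. For Ctrl minus wt 7 of the 10 passed, where BACH1 (0.38), NQO1 (0.38), GCLC (0.28), SRXN1 (0.43) and OSGIN1 (0.28) were higher in Ctrl beside TXNRD1, and HMOX1 (-0.60) was lower. For SoF minus Ctrl 4 passed, the 3 genes above and SRXN1 (-0.69). Fewer cells expressing a gene and less RNA per cell cannot be told apart in these bulk libraries.

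**Figure D3:**
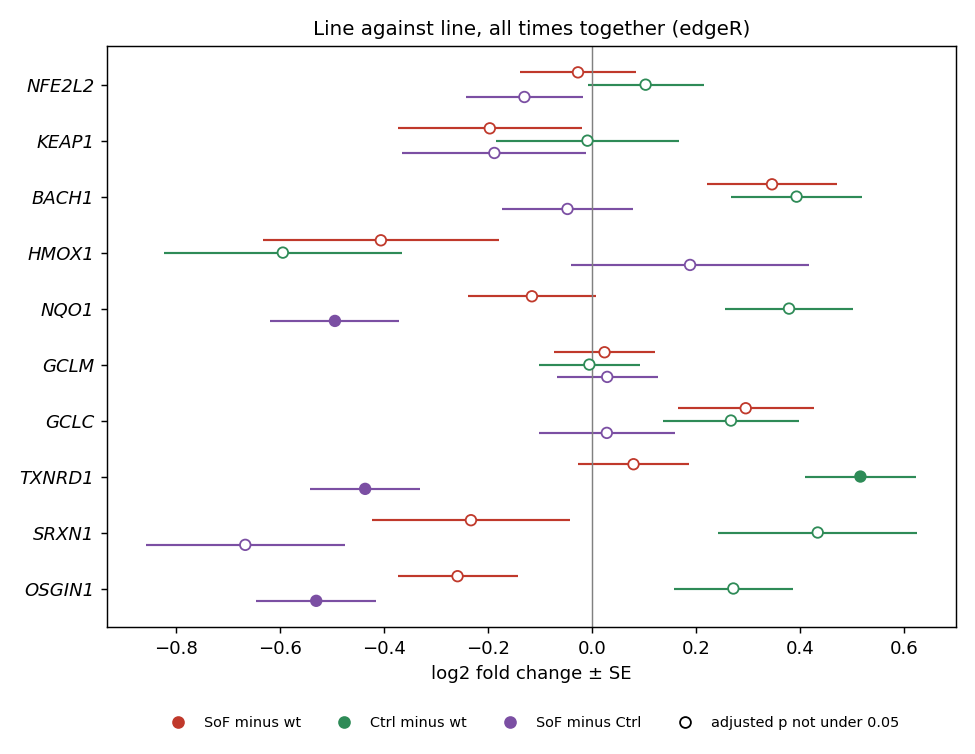
Log2 fold change (horizontal axis) with its SE (bars) of each gene between lines over all 4 times, 8 libraries a line; filled points had an adjusted p under 0.05 in edgeR. TXNRD1, NQO1 and OSGIN1 lie left of 0 in SoF minus Ctrl, and TXNRD1 lies right of 0 in Ctrl minus wt.

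TXNRD1 had a lowest, median and highest value of 282, 329.9 and 425 CPM in wt, 309, 356 and 411 CPM in SoF, and 354, 474 and 587 CPM in Ctrl. The Ctrl mean was the highest of the 3 lines at every time, although the ranges over time overlapped. The log2 fold change was 0.52 (SE 0.11, edgeR adjusted p = 0.00489) for Ctrl minus wt and -0.44 (SE 0.11, adjusted p = 0.0171) for SoF minus Ctrl. NQO1 had 26.6, 34 and 38.6 CPM in wt, 21.4, 30.1 and 39 CPM in SoF, and 32.1, 41.9 and 53.6 CPM in Ctrl. It was lower in SoF than in Ctrl by a log2 fold change of -0.49 (SE 0.12, edgeR adjusted p = 0.0212), and the call was lost without SoF 0 h replicate 2 (-0.46), Ctrl 0 h replicate 1 (-0.45) or Ctrl 3 h replicate 2 (-0.45), and without the filter on low counts (-0.50, adjusted p = 0.0568). OSGIN1 had 36.0, 46.3 and 56.7 CPM in wt, 29.2, 38.5 and 48.2 CPM in SoF, and 44.4, 56.5 and 66.3 CPM in Ctrl. Its SoF minus Ctrl difference was -0.53 (SE 0.12, edgeR adjusted p = 0.00662). SRXN1, at 40.7, 71.7 and 100.5 CPM in SoF and 65.7, 121.7 and 140.0 CPM in Ctrl, did not pass (-0.67, SE 0.19, edgeR adjusted p = 0.0508). DESeq2 called it (-0.68, adjusted p = 0.0254), as did edgeR with the size factors of DESeq2 (adjusted p = 0.046), and it passed without SoF 3 h replicate 1 (-0.74), SoF 3 h replicate 2 (-0.76), Ctrl 0 h replicate 2 (-0.74) or Ctrl 1 h replicate 2 (-0.75). The TXNRD1 and OSGIN1 calls were kept in all 24 fits that left out 1 library, and all 4 calls between lines were lost in the 0 h libraries alone, 2 a line, where TXNRD1 had 0.69 for Ctrl minus wt and -0.53 for SoF minus Ctrl, NQO1 -0.46 and OSGIN1 -0.61.

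A list of 61 other NRF2 pathway genes was examined by its counts alone, of which 58 were tested. Averaged over the lines at 3 h, 28 of the 58 were called, 21 higher and 7 lower, beside the 40.3% of all genes, and their median log2 fold change was 0.15 against -0.03. At 2 h 26 were called (19 higher, 7 lower), where 28.8% of all genes were, and at 1 h 3, all lower, where 1.28% were. From 1 to 2 h 38 of the 58 were called (27 higher, 11 lower), beside 44.9% of all genes, and from 2 to 3 h 10 (5 and 5), beside 10%. No pathway gene was called by edgeR or DESeq2 for a difference between lines in the 3 h response. At an unadjusted p under 0.05 were 2 (SoF minus wt), 3 (Ctrl minus wt) and 1 (SoF minus Ctrl) of the 58. Of all 23651 tested genes, 558, 845 and 671 had such a p in these contrasts. At 3 h averaged over the lines, 20.9% of all tested genes were called as higher and 19.3% as lower. In that comparison 5 of the 6 NADPH-generating enzymes rose, among them TKT (transketolase, log2 0.76, SE 0.10). Of the thioredoxin and peroxiredoxin genes 3 of 5 rose and 1 fell, with PRDX6, a peroxiredoxin, at 0.58 (SE 0.08). Among the haem and iron genes 3 of 7 rose, HMOX2, the constitutive haem oxygenase, by 0.80 (SE 0.10).

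In the glutathione, detoxification, and partner groups some genes rose and others fell. Their shares were not tested against those of all genes (20.9% higher and 19.3% lower). Of the 15 tested glutathione genes 4 rose, including the exporters ABCC3 (log2 1.16, SE 0.13) and ABCC4 (0.75, SE 0.08), and 2 fell, including GLRX, a glutaredoxin (-0.68, SE 0.08). The second of these was SLC7A11, the cystine importer that supplies glutathione synthesis (-0.75, SE 0.12), which was singled out after its value was seen. Of the 13 tested detoxification genes 3 rose, among them the carbonyl reductase CBR1 (0.85, SE 0.13), and 3 fell. MAFF, a small MAF partner of NRF2 that lacks an activation domain, had the smallest p of the list and fell by 1.07 on the log2 scale (SE 0.11), while 2 of the 5 tested partners and relatives rose. Among the 7 ligase genes and regulators 1 was called, as higher.

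**Figure D4:**
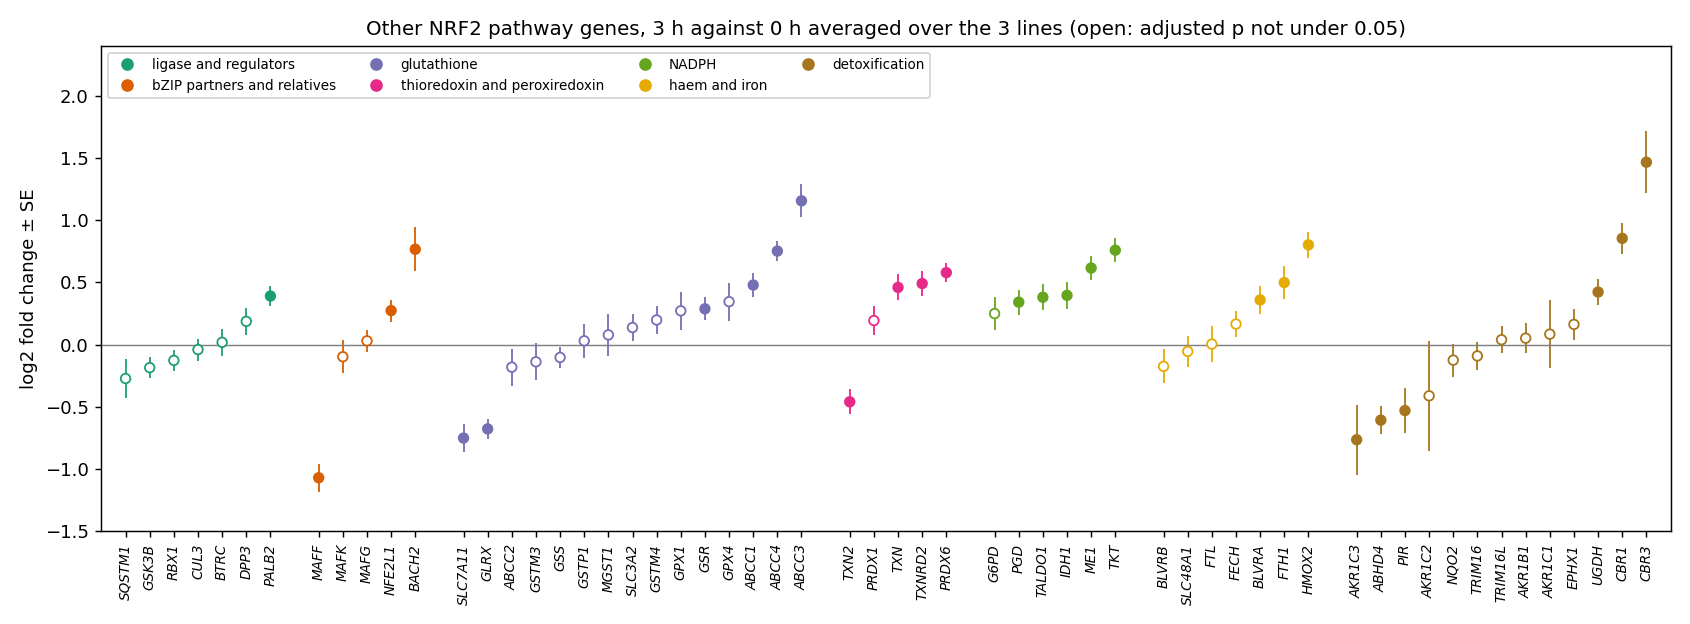
Log2 fold change (vertical axis) with its SE (bars) of 58 NRF2 pathway genes at 3 h against 0 h, averaged over the 3 lines and coloured by role; filled points had an adjusted p under 0.05 in edgeR. Of these, 21 lie above 0 and 7 below.

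Between lines, few genes of the pathway list were called. SoF and wt differed at 1 of 57 tested genes, where 8.02% of all genes did: TRIM16, an interactor of NRF2 and KEAP1 (log2 -0.35, SE 0.09). Ctrl exceeded wt at 3 of 57, where 4.77% of all genes differed and 2.11% were higher in Ctrl: the glutathione reductase GSR (0.37, SE 0.10), the glutathione synthetase GSS (0.23, SE 0.07) and TRIM16L (0.50, SE 0.09). SoF was lower than Ctrl at 3 of 57, where 3.61% of all genes differed and 1.45% were lower in SoF: TRIM16L (-0.73, SE 0.09), TRIM16 (-0.53, SE 0.09) and SLC3A2, the partner chain of SLC7A11 (-0.56, SE 0.12). TRIM16 and TRIM16L are near-identical copies, and their values are uncertain.

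The genes whose group means were most like those of 2 of the members are given as a description over 12 groups that share line and time. Nearest to NFE2L2 in log2 CPM were MIRLET7BHG (Pearson r = 0.956), ZBTB49 (0.952), YWHAG (0.949), CHIC2 (0.948) and LATS2 (0.945). Nearest to HMOX1 were ULBP2 (0.959), ENSG00000273361 (0.951), MARCHF9 (0.945), SERTAD3 (0.942) and ANKRD54 (0.930).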

How the data were processed

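4sU-labelled RNA from 24 U2OS libraries was sequenced by the authors, who extracted unique molecular identifiers with UMI-tools 1.1.2, trimmed with Trim Galore 0.6.6, aligned to hg38 with STAR 2.7.3a, removed duplicates and counted exonic reads with featureCounts on GENCODE 39. The deposited values are raw counts per gene. That strand was used is stated only by the table's title. Symbols and positions came from GENCODE 44 (61369 of 61533 identifiers, 99.7%).

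Counts were tested with R 4.3.3 and edgeR 4.0.16, with TMM scaling, filterByExpr (minimum count 10, total 15) and the quasi-likelihood F test. P-values were adjusted by Benjamini-Hochberg over all tested genes and called under 0.05. A fit over the 12 groups of line and time tested 23651 genes, and a fit on line alone tested 21122. Library totals of 8106036 to 15820806 and 2 libraries a group limit the precision. Nothing in the labels says that the 2 libraries came from separate cultures, so p-values of the fit over 12 groups measure the spread between them. Those of the fit on line alone measure the spread over the 8 libraries of a line, which includes their change with time. According to the paper, replicates were biotinylated and pulled down in pairs to limit variability. The spread between the 2 libraries may therefore leave out differences between pulldowns. The scripts were tested on simulated data. DESeq2 1.42.0, other size factors, no filter, a replicate block and leaving out each library were alternatives, and leaving out all 0 h libraries of 1 replicate number was added after seeing the data.

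The members and the pathway list were chosen with earlier results of these data known. All members were named, and 1 marker gene is not reported here. Of the pathway list, up to 8 genes with the smallest p at 3 h averaged over lines and up to 4 in each line contrast were named among those called, and for NFE2L2 and HMOX1 the 5 genes with the highest correlation.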

Additional observations from a re-analysis of the deposited data

Results flagged for a closer look

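GCLM in the SoF line was flagged because 1 of its 8 libraries stood apart from the others. The SoF 3 h replicate 2 library read 43.7 CPM, and the nearest value was 35.9 CPM, which gave a gap of 0.582 of the whole range and exceeded Dixon's critical value for 8 samples. The 8 libraries span all 4 times, and the nearest value was the other 3 h library. Of the 33 groups looked at (the 10 genes and NR3C1 in each line), this was the 1 past its limit, and chance flags about 1 in 20.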

How the results depend on the processing

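The 5 calls at 3 h averaged over the lines kept their direction and call under DESeq2, the other size factors, no filter and the replicate block and in all 24 fits that left out 1 library. Among the alternatives chosen after seeing the data, leaving out the 3 replicate 1 libraries at 0 h gave 2 genes in wt, 2 in SoF and 2 in Ctrl at 2 h, 4 in Ctrl at 3 h, and 5 at 2 h averaged over lines. Leaving out the 3 replicate 2 libraries at 0 h gave 1 in wt, 1 in SoF and 0 in Ctrl at 3 h, 2 in SoF at 1 h, and 5 at 1 h and 0 at 2 h averaged over lines. The cause was not tested, and the shares of all genes called under these alternatives are not given here. An unchanged count can hold different genes, as in wt at 3 h without the replicate 1 libraries at 0 h.

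Without the filter on low counts, the numbers called were 1 in wt at 3 h, 1 in SoF at 2 h, 3 in Ctrl at 3 h and 2 at 1 h averaged over lines, and for the pathway list 8 at 1 h and 1 in Ctrl minus wt. A fit on the line's own libraries called 1 in wt at 3 h. DESeq2 called 3 from 2 to 3 h, 2 in Ctrl minus wt, 4 in SoF minus Ctrl, and for the pathway list 6 at 1 h and 4 in SoF minus wt. With an additive time term, 4 genes passed in SoF minus wt and 7 in Ctrl minus wt, and with the 0 h libraries alone 0 passed in Ctrl minus wt and 0 in SoF minus Ctrl. No result reversed.

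Leaving out 1 library at a time gave 0 to 2 genes in wt, 1 to 5 in SoF and 0 to 4 in Ctrl at 3 h, 0 to 1 in SoF and in Ctrl at 2 h, and 0 to 1, 2 to 4 and 5 to 6 at 1, 2 and 3 h averaged over lines. It gave 3 to 6 from 1 to 2 h, 0 to 3 from 2 to 3 h, 0 to 1 for SoF minus wt, 1 to 2 for Ctrl minus wt and 2 to 4 for SoF minus Ctrl.

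The replicate numbers were not taken to pair the samples: the correlation of replicate differences between groups had a median of 0.038 (-0.221 to 0.568, above 0.1 in 21 of 66 pairs of groups), with 0.394 to 0.568 among the 0 h groups. With the replicate block, 3 genes were called from 2 to 3 h (GCLM, GCLC and BACH1), and NFE2L2 at 2 h against 0 h (0.28, adjusted p = 0.0489) and HMOX1 from 1 to 2 h (0.47, adjusted p = 0.027) were gained.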
